A study of Homo sapiens with 7 samples.

Results

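The genes described here encode the proteins of the cytosolic ribosome, and 61 of them were read on the arrays, 22 of the small subunit (RPS symbols) and 39 of the large subunit (RPL symbols), out of 18417 genes tested. A gene was taken when its symbol was RPL or RPS followed by a number, with an optional A, L, X or Y ending, or was RPLP0, RPLP1, RPLP2 or RPSA. Pseudogenes and the RPS6K kinases were left out, and a gene needed a probe that the platform annotation gives to a single symbol. RefSeq lists 81 genes that meet the naming rule. Of the 20 others, RPL13A, RPL21, RPL36A, RPL37, RPL39, RPL6, RPL9, RPS10, RPS12, RPS18 and RPS26 were read by a probe with several symbols, and the remaining 9 were not analysed here. Of several probes for a gene, the one whose values had the widest interquartile range was used.

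The study compared SUM159 cells, an established line of mesenchymal triple-negative breast cancer, with and without SHP2, the tyrosine phosphatase encoded by PTPN11. The cells carried a lentiviral vector that expresses a hairpin under doxycycline, and RNA was taken after 15 days of induction in 2D culture. There were 3 groups, namely Ctrl shRNA with 2 arrays, SHP2 sh1 with 2 arrays and SHP2 sh2 with 3 arrays. All groups, the controls included, had the vector and received doxycycline, and all came from 1 cell line. Levels are given as log2 values after robust multi-array averaging (RMA), so a difference of 1 is a doubling or a halving. Nothing in the labels ties the arrays to separate cultures, so p-values cover array-to-array spread only, perhaps of a technical kind.

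A ribosome joins a small subunit, which reads the messenger RNA, to a large subunit, which forms the peptide bond. Each subunit is built from ribosomal RNA and a fixed set of proteins, most of them present in a single copy. The genes are transcribed at high levels in growing cells, and their messenger RNAs typically begin with a C followed by a run of pyrimidines, the terminal oligopyrimidine (TOP) start through which mTOR controls their translation. The arrays read RNA abundance, and say nothing of translation.

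PTPN11, the targeted gene, read 9.53 and 9.18 on the Ctrl shRNA arrays, 7.90 and 6.93 on SHP2 sh1, and 7.96, 7.20 and 7.89 on SHP2 sh2. All 5 SHP2 arrays lay below both controls. The mean of both hairpins minus Ctrl shRNA was -1.80 (SE 0.34, limma adjusted p = 0.758). The replicate 2 arrays of both hairpins differed from the other 5 over all genes. Their correlation with those 5 was 0.83 to 0.95, against 0.97 to 0.99 among the 5 and 0.96 between the pair. On these 2 arrays bright genes lay low: the brightest 25% of genes by mean level had a median of -0.44 and -0.83 against the control mean, and 50 of the 61 members were among them. Of 10 cell type markers listed, VIM read 11.62 to 12.18 and CD44 10.69 to 12.15, with EPCAM at 2.89 to 4.10 and PGR at 4.44 to 4.89. CDH1, the epithelial cadherin, read 5.16 to 7.42, highest on the 2 replicate 2 SHP2 arrays. The list also held ZEB1, KRT8, KRT18, ESR1 and ERBB2, whose levels are not given here. Its median level was 8.10 and 7.93 on the Ctrl shRNA arrays, so keratin or receptor genes were also among its brighter genes. The values shown are therefore not a check of the mesenchymal triple-negative label. In bulk RNA, fewer cells of a kind and less RNA per cell cannot be told apart.

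The sequences around the start sites show what the members share beyond their names. RefSeq promoter sequence (GRCh38.p14, 250 bases before to 50 after the annotated start) was at hand for 50 of the 61 members. Over all protein-coding genes, the start used was the listed gene start in 13283 of 15843 promoters (83.8%). How the others affect the shares was not tested. The motifs other than the TOP-like start were searched in the 250 bases before the start alone. A TOP-like start, a C followed by at least 4 more pyrimidines within 5 bases of the annotated start, was present in 41 of 50 members (82%) and in 22.1% of the 15843 promoters of protein-coding genes. With a C at the annotated start base itself and at least 4 more pyrimidines after it, the shares were 66% and 4.6%. In this count the run could begin further upstream. The ETS core CCGGAA, searched on both strands (the other strand reads TTCCGG), was in 23 of 50 members (46%) and in 19.3% of all promoters. The SP1 GC box GGGCGG was in 60% against 56%, the TATA box TATAAA in 10% against 9.23%, and the YY1 motif AAGATGG in 2% against 3.35%. A match is a description of the letters and not of binding.

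To show these starts, 6 small subunit members are printed that had the smallest p-values among members with lower values in the SHP2 groups. Each line runs from 100 bases before the annotated start to 15 bases after it, in the gene's direction. Capitals mark a TOP-like run. RPS16 lies at chr19:39435935-39436049 (minus strand), RPS28 at chr19:8321396-8321510 (plus strand), RPS3 at chr11:75399418-75399532 (plus strand), RPS23 at chr5:82278340-82278454 (minus strand), RPS15 at chr19:1438296-1438410 (plus strand) and RPS29 at chr14:49598696-49598810 (minus strand). The runs were 12 bases in RPS16 and RPS23, 9 in RPS28 and 14 in RPS3. RPS15 and RPS29 had none at their annotated starts, and none of the 6 held an ETS core in the 250 bases before the start.
RPS16: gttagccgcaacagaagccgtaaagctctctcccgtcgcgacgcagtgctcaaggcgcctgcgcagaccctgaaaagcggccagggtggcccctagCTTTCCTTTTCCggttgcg
RPS28: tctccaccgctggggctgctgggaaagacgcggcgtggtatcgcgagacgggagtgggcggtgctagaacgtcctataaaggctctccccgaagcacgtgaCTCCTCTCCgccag
RPS3: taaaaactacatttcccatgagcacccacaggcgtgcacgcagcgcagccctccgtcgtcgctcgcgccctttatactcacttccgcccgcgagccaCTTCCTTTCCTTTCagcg
RPS23: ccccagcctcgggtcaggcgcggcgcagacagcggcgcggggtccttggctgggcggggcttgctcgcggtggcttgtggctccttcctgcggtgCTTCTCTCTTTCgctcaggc
RPS15: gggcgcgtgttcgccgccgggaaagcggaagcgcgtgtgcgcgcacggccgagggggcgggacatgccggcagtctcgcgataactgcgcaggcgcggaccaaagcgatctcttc
RPS29: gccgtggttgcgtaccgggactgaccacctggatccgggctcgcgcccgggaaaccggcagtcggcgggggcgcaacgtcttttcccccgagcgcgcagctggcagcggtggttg

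For comparison, 3 large subunit members with higher means in the SHP2 groups are printed in the same way, from chr1:23691679-23691793 (plus strand) for RPL11, chr3:51995881-51995995 (minus strand) for RPL29 and chr15:69452718-69452832 (plus strand) for RPLP1. Capitals mark the TOP-like run and, further upstream in RPL29, the ETS core before the start, on the opposite strand. The runs were 5, 12 and 11 bases long. The letters TTCCGG also stand just after the start in RPL29 and RPS16, beyond the bases searched, and are not marked as a core there. RPL11 held its ETS core further upstream than the bases printed, and RPLP1 held none.
RPL11: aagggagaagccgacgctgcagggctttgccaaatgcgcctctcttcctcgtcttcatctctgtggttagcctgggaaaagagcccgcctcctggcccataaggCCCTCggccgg
RPL29: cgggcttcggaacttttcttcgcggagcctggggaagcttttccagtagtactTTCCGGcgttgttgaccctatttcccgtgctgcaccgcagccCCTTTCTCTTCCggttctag
RPLP1: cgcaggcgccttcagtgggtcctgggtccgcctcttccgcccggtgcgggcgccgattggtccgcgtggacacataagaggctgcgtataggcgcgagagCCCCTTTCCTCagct

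Against Ctrl shRNA, most ribosomal protein genes had lower RMA values in both hairpin groups, by a fraction of a doubling, but the direction depended on how the arrays were scaled. The median log2 difference over the 61 members was -0.25 for SHP2 sh1, -0.24 for SHP2 sh2 and -0.24 for the mean of both hairpins, which share the same controls. After cyclic loess scaling of the deposited values the same medians were -0.02, 0.13 and 0.07. For the mean of both hairpins 50 members lay below 0 and 11 above, and after cyclic loess 25 lay below and 36 above. The medians over all genes were 0.04, 0.09 and 0.075, and over the brightest 25% of genes -0.20, -0.32 and -0.27. The small subunit had a median of -0.21 and the large subunit of -0.24 for the mean of both hairpins (0.05 and 0.08 after cyclic loess).

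No member passed an adjusted p of 0.05 in limma, in a fit where 0% of all genes did so for SHP2 sh1, SHP2 sh2, their mean or the difference between hairpins. At an unadjusted p under 0.05, 2 members were lower for the mean of both hairpins, RPS15 and RPS29, where 1.25% of all genes were lower and 0.69% higher. For SHP2 sh2 there were also 2 lower members, against 1.81% of all genes lower and 0.532% higher. For SHP2 sh1 there was none, against 0.456% lower and 0.635% higher. Between the hairpins there was none either, against 0.57% lower and 0.0597% higher. The smallest adjusted p of a member was 0.758 for the mean of both hairpins.

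**Figure D1:**
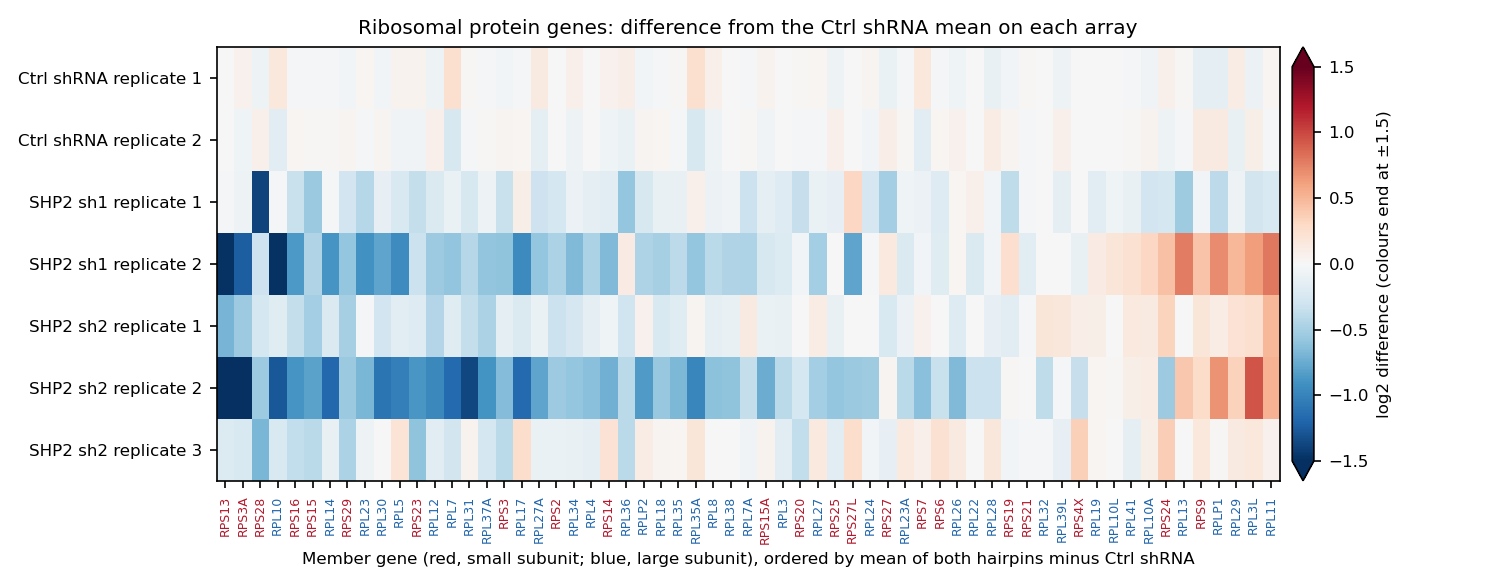
Each column is 1 of the 61 members and each row 1 array, and the colour is the log2 RMA value minus the mean of the 2 Ctrl shRNA arrays, with colours ending at 1.5 in either direction. The 2 replicate 2 SHP2 arrays carry the strongest colours, RPS28 is lowest on SHP2 sh1 replicate 1, and the 11 members at the right end have means above 0.

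A count that does not use the size of a difference is how many members had all 5 SHP2 arrays on the same side of both controls. It was 15 of 61 below (24.6%) and 0 above, where 7.17% of all genes were below and 8.13% above. Among the brightest 25% of genes, which most members belong to, the shares were 13.1% and 2.63%. The 15 were RPS2, RPS3, RPS3A, RPS13, RPS15, RPS16, RPS23, RPS28, RPS29, RPL3, RPL4, RPL12, RPL23, RPL34 and RPL37A, or 9 of 22 of the small subunit (40.9%) and 6 of 39 of the large (15.4%). The difference between the subunits was not tested. After cyclic loess 5 members lay below both controls and 0 above (8.2%, against 7.31% of all genes below), and 4 of the 5 were among the 15, namely RPS3A, RPS13, RPS29 and RPL37A. Leaving out 1 array at a time gave 15 to 24 members below. Dropping an array cannot take a gene out of this count, so keeping all of the 15 is no check. The count reached 24 without Ctrl shRNA replicate 2 (12.5% of all genes below) or without SHP2 sh2 replicate 3 (9.68%), and without SHP2 sh1 replicate 1 it was 17 below and 6 above (9.84%), against 15% of all genes below and 23.4% above.

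**Figure D2:**
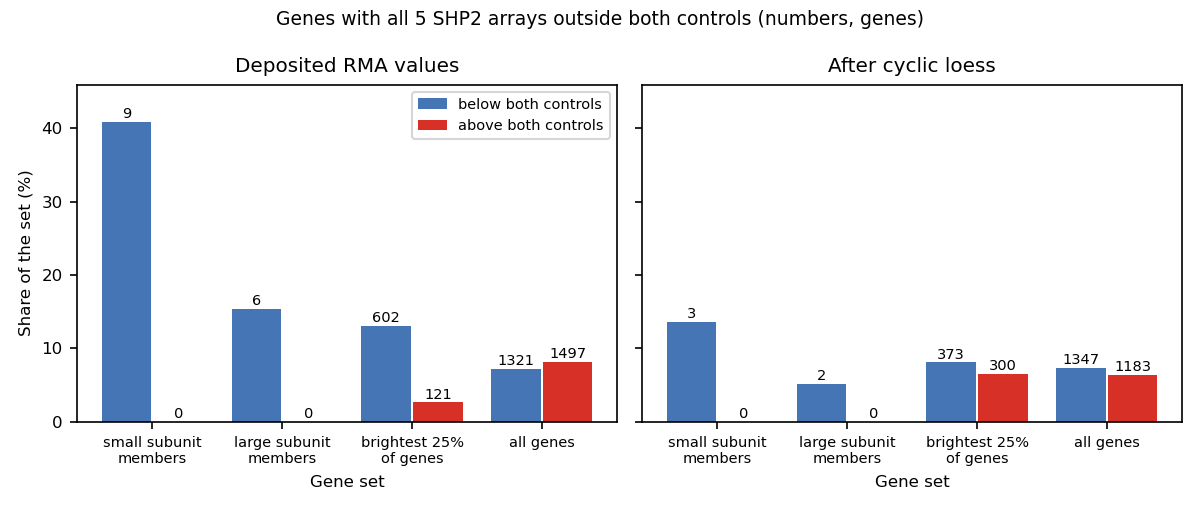
Bars give the share of each gene set, in percent, with all 5 SHP2 arrays below or above both Ctrl shRNA arrays, with the number of genes over each bar, for the deposited values at the left and after cyclic loess at the right. The small subunit bar is 40.9% with the deposited values and 13.6% after cyclic loess, and no member lies above both controls in either.

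For the 6 small subunit members with the smallest p-values, the deposited values of all SHP2 arrays lay below both controls, while SHP2 sh1 and SHP2 sh2 overlapped each other in all 6. After cyclic loess RPS29 alone of the 6 lay below both controls on all 5 SHP2 arrays, and RPS3, RPS15, RPS23 and RPS28 were above both controls on the replicate 2 pair. RPS15, a protein of the subunit head near the decoding site, read 10.11 and 10.14 on Ctrl shRNA, 9.57 and 9.68 on SHP2 sh1, and 9.62, 9.32 and 9.72 on SHP2 sh2. No SHP2 array came within 0.3 of a control, and the difference was -0.54 (SE 0.18, limma adjusted p = 0.758), or 1.45-fold. RPS15 has a second probe, which read 6.15 and 6.03 on the controls and 6.02 to 7.20 on the SHP2 arrays. That probe gave 0.29, the opposite side of 0, so the value for RPS15 rests on the probe chosen.

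RPS29, a zinc-binding protein of the subunit head, read 6.22 and 6.29 on Ctrl shRNA, 5.97 and 5.67 on SHP2 sh1, and 5.75, 5.69 and 5.78 on SHP2 sh2. The 3 SHP2 sh2 arrays were within 0.1 of each other, and the difference averaged over both hairpins was -0.47 (SE 0.17, limma adjusted p = 0.758). It remained negative after cyclic loess, at -0.65. RPS16, which reaches toward the transfer RNA in the decoding centre, read 10.56 and 10.61 on Ctrl shRNA, 10.25 and 9.72 on SHP2 sh1, and 10.23, 9.70 and 10.22 on SHP2 sh2. Here the 2 replicate 2 SHP2 arrays were the lowest, the other 3 agreed within 0.1, and the difference was -0.57 (SE 0.24).

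RPS28, which lies near the messenger RNA exit, read 11.91 and 12.06 on Ctrl shRNA, 10.59 and 11.67 on SHP2 sh1, and 11.72, 11.44 and 11.30 on SHP2 sh2. Its lowest array was SHP2 sh1 replicate 1, not a replicate 2 array. The difference was -0.67 (SE 0.31), and without that array it was -0.41. All 3 probes of RPS28 had this order, with differences of -0.61, -0.63 and -0.67.

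RPS3, at the messenger RNA entry channel, read 12.19 and 12.27 on Ctrl shRNA, 11.89 and 11.63 on SHP2 sh1, and 12.09, 11.58 and 11.82 on SHP2 sh2, a difference of -0.43 (SE 0.20). RPS23, a protein of the decoding centre, read 9.75 and 9.63 on Ctrl shRNA, 9.33 and 9.36 on SHP2 sh1, and 9.49, 8.81 and 9.08 on SHP2 sh2, a difference of -0.45 (SE 0.22). In both genes every SHP2 array was lower than either control with the deposited values, but not after cyclic loess. For all 6 genes the difference was negative in each of 17 alternative settings, and the value nearest 0 for RPS3 was -0.05 after cyclic loess.

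**Figure D3:**
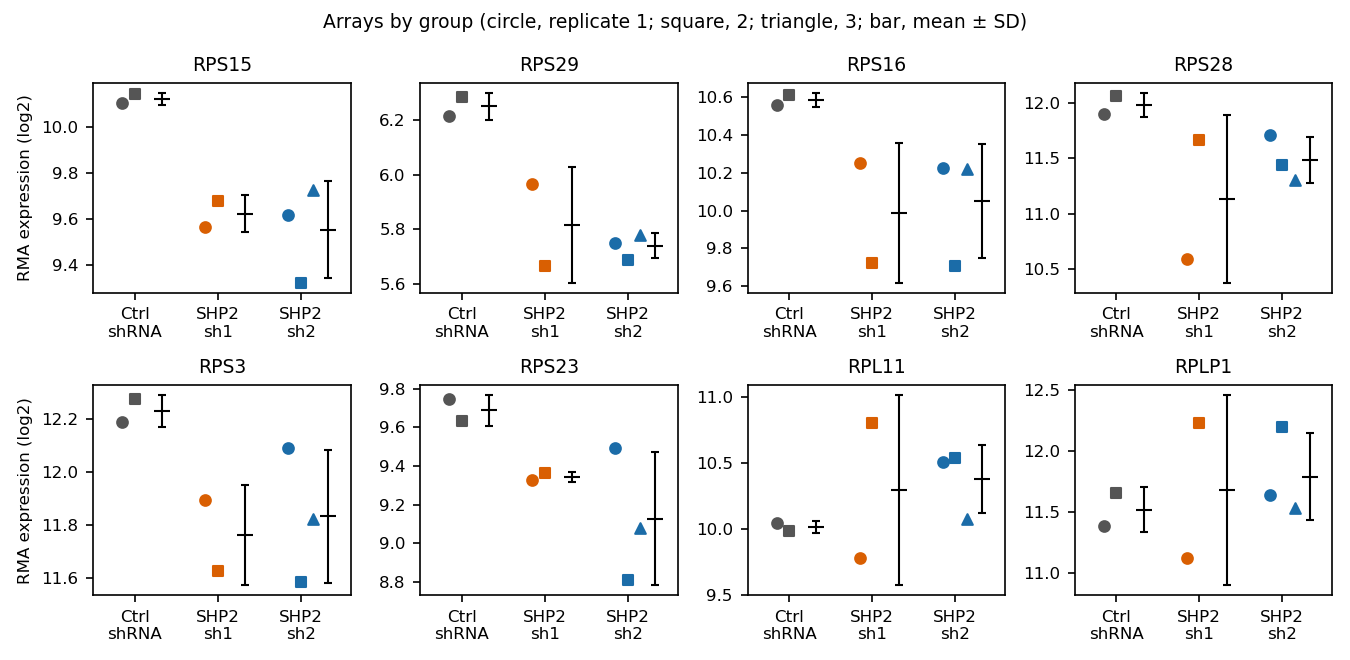
Each panel shows 1 member, with the log2 RMA value of every array by group and the group mean with its SD beside the points; the vertical axes differ between panels and do not start at 0. In RPS15, RPS29, RPS16, RPS28, RPS3 and RPS23 the SHP2 arrays lie under both controls, while RPL11 and RPLP1 are highest on SHP2 sh1 replicate 2 and lowest on SHP2 sh1 replicate 1.

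The 4 members with the largest SD over the 7 arrays were RPS13, RPS3A, RPL10 and RPL17, whose lowest values were all on the 2 replicate 2 SHP2 arrays. RPS13, a protein of the subunit body, read 11.84 and 11.82 on Ctrl shRNA, 11.80 and 10.34 on SHP2 sh1, and 11.12, 9.59 and 11.62 on SHP2 sh2. RPS3A read 9.82 and 9.69 on Ctrl shRNA, 9.68 and 8.52 on SHP2 sh1, and 9.21, 8.04 and 9.53 on SHP2 sh2. Both genes were below the controls everywhere, SHP2 sh1 replicate 1 by as little as 0.02 and 0.01 under the lower control. Their differences were -0.90 (SE 0.61) and -0.74 (SE 0.48), and without both replicate 2 SHP2 arrays -0.24 and -0.23. RPL10, one of the last proteins to join the large subunit, read 11.73 and 11.41 on Ctrl shRNA, 11.56 and 10.09 on SHP2 sh1, and 11.39, 10.30 and 11.34 on SHP2 sh2. Its difference of -0.65 (SE 0.47) became -0.11 without the replicate 2 pair. The SHP2 sh2 arrays of RPL10 lay below both controls, and SHP2 sh1 overlapped them. RPL17 read 6.34 and 6.40 on Ctrl shRNA, 6.47 and 5.42 on SHP2 sh1, and 6.16, 5.20 and 6.64 on SHP2 sh2, with -0.40 (SE 0.44) and 0.06 without the pair. Both its SHP2 groups overlapped the controls.

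Array by array, the members' medians against the control mean were -0.14 and -0.32 for SHP2 sh1 replicates 1 and 2, and -0.11, -0.56 and -0.01 for SHP2 sh2 replicates 1, 2 and 3. The brightest 25% of genes gave 0.003 and -0.44, and -0.12, -0.83 and -0.001. The members were thus less low than other bright genes on both replicate 2 arrays, alike on SHP2 sh2 replicates 1 and 3, and lower on SHP2 sh1 replicate 1. On that array 54 of 61 members (88.5%) were below the control mean, against 54.8% of all genes and 48.7% of the brightest 25%. After cyclic loess 55 of 61 were below it there, with a median of -0.18, whereas the replicate 2 arrays of SHP2 sh1 and SHP2 sh2 were at 0.21 and 0.40. SHP2 sh1 replicate 1 is a single array, and a difference of 1 array has no replicate check.

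**Figure D4:**
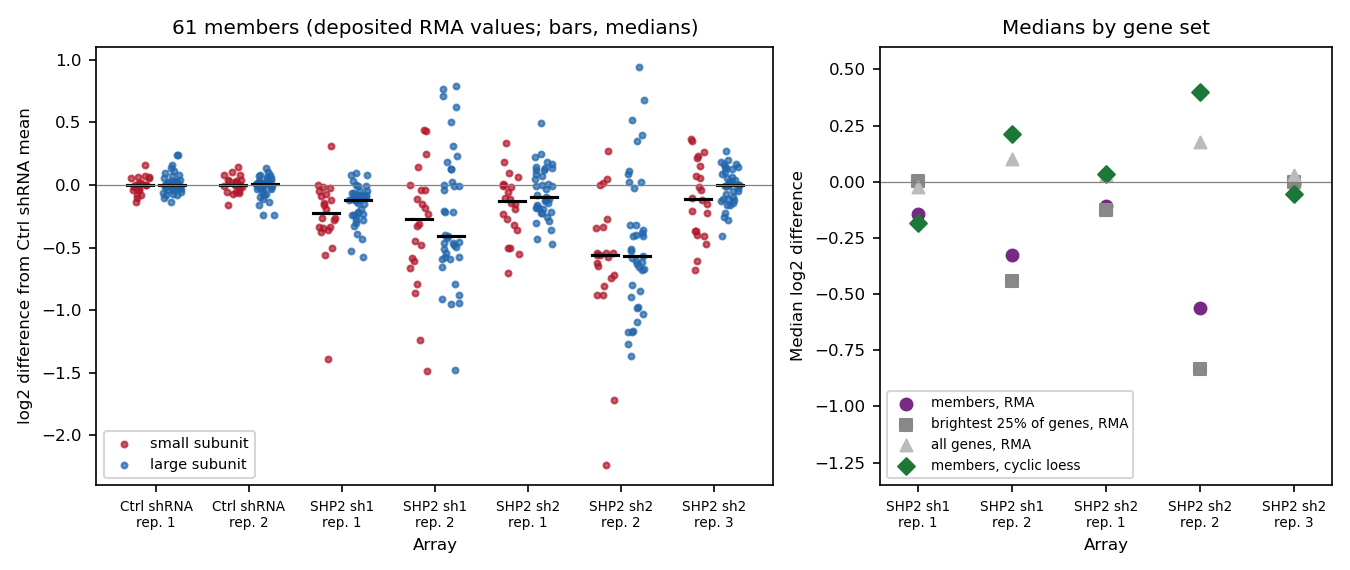
At the left each point is 1 member on 1 array, as log2 difference from the Ctrl shRNA mean, split by subunit with a bar at the median; at the right are the medians of the members, of the brightest 25% of genes and of all genes, and of the members after cyclic loess. On the 2 replicate 2 SHP2 arrays the members' median is -0.32 and -0.56 with the deposited values but 0.21 and 0.40 after cyclic loess, while on SHP2 sh1 replicate 1 it is -0.14 and -0.18.

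The members did not move as a block on the replicate 2 arrays. On this pair 39 members were below both controls (63.9%) and 10 above (16.4%), where 34.3% of all genes were below and 47.6% above. Among the brightest 25% of genes 67.7% were below and 14.6% above, close to the members' shares. After cyclic loess the count turned to 13 members below and 35 above. The 10 above with the deposited values were RPL3L, RPL10A, RPL10L, RPL11, RPL13, RPL19, RPL29, RPL41, RPLP1 and RPS9, and after cyclic loess 9 of them were still above and RPL10L was below both controls. Over the 61 members the shift of SHP2 sh1 replicate 2 and of SHP2 sh2 replicate 2, each from the mean of its own hairpin, had a Pearson r of 0.82, and over all 18417 genes of 0.85. These correlations are across genes, which are not independent replicates. The control level of a gene and its shift on the pair had an r of -0.20 over the members and -0.56 over all genes. On the other 3 SHP2 arrays 18 members were below both controls and 0 above, against 8.81% and 10.1% of all genes and 15% and 7.08% of the brightest 25%. After cyclic loess it was 12 members below (19.7%) and 0 above. The shares were then 12.4% and 10.2% of all genes, and 12.3% and 12.1% of the brightest 25%. The 18 were the 15 named above with RPL36, RPS25 and RPS27.

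**Figure D5:**
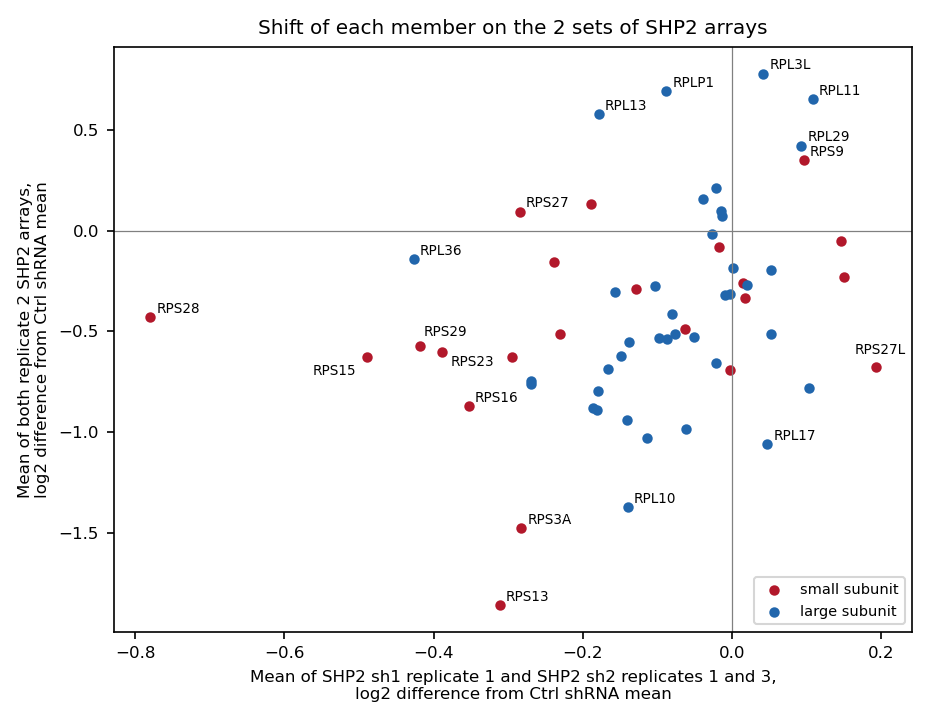
Each point is 1 member, with its mean log2 difference from Ctrl shRNA on SHP2 sh1 replicate 1 and SHP2 sh2 replicates 1 and 3 along the horizontal axis and on the 2 replicate 2 SHP2 arrays along the vertical axis. RPS28 lies furthest left, RPS13 lowest, and RPL13 and RPLP1 fall on opposite sides of 0 on the 2 axes.

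Without the 2 replicate 2 SHP2 arrays the members' median difference, averaged over both hairpins, was -0.10, and 49 members lay below 0 and 12 above, against a median of 0.002 for all genes. It was -0.23 over the small subunit and -0.09 over the large. In this fit 10 of 61 members had an unadjusted p under 0.05, as did 1539 of 18417 genes, and none passed the adjusted threshold in limma. With 1 array of SHP2 sh1 left, that array is assumed to vary like the other groups.

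Of the members higher in the SHP2 groups, none lay above both controls on all 5 arrays. RPL11, which with RPL5 and 5S rRNA forms the particle that can bind MDM2, read 10.05 and 9.98 on Ctrl shRNA, 9.78 and 10.80 on SHP2 sh1, and 10.51, 10.54 and 10.08 on SHP2 sh2. It was above both controls on 4 of the 5 SHP2 arrays, and the difference was 0.32 (SE 0.31). RPL5 itself read 11.93 and 11.82 on Ctrl shRNA, 11.65 and 10.93 on SHP2 sh1, and 11.72, 10.84 and 12.07 on SHP2 sh2, a difference of -0.46 (SE 0.37). Its SHP2 sh1 arrays lay below both controls, and SHP2 sh2 overlapped them. The partners of this particle thus had means on opposite sides of 0, neither clear of the spread between arrays.

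The stalk that recruits elongation factors showed a like split. RPLP1 read 11.38 and 11.65 on Ctrl shRNA, 11.12 and 12.23 on SHP2 sh1, and 11.63, 12.19 and 11.53 on SHP2 sh2. RPLP2 read 11.07 and 11.15 on Ctrl shRNA, 10.87 and 10.64 on SHP2 sh1, and 11.18, 10.26 and 11.22 on SHP2 sh2. The differences were 0.21 (SE 0.35) for RPLP1 and -0.29 (SE 0.30) for RPLP2. For RPLP1 both SHP2 groups overlapped the controls. For RPLP2 the SHP2 sh1 arrays lay below both controls, and SHP2 sh2 overlapped them. Another probe of RPLP1 gave 0.003. Neither sign held: RPLP1 was at -0.16 without the replicate 2 pair, and RPLP2 at 0.08 after cyclic loess.

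Further members with higher means were RPL29 at 0.22 (SE 0.22), RPS9 at 0.20 (SE 0.20) and RPL13 at 0.12 (SE 0.35). RPL29 read 8.98 and 8.75 on Ctrl shRNA and 8.79 to 9.37 on the SHP2 arrays, and its brighter probe gave -0.15. RPS9 read 10.05 and 10.32 on Ctrl shRNA and 10.14 to 10.62 on the SHP2 arrays, and its brighter probe gave 0.003. RPL13 read 9.22 and 9.18 on Ctrl shRNA, 8.67 and 9.96 on SHP2 sh1, and 9.20, 9.60 and 9.20 on SHP2 sh2, so its 2 SHP2 sh1 arrays lay on either side of the controls. Its other probes gave 0.12 and -0.11.

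RPS6, the substrate by which S6 kinase activity is usually read, was at 10.82 and 10.87 on Ctrl shRNA, 10.65 and 10.67 on SHP2 sh1, and 10.85, 10.51 and 11.08 on SHP2 sh2. Its difference was -0.11 (SE 0.20), and 0.25 after cyclic loess. RPS19, the gene most often mutated in Diamond-Blackfan anaemia, was at 10.00 and 10.07 on Ctrl shRNA, 9.66 and 10.28 on SHP2 sh1, and 9.88, 10.05 and 10.00 on SHP2 sh2. Its difference was -0.06 (SE 0.22), and 0.28 after cyclic loess. With the deposited values, RPS6 was below both controls on the SHP2 sh1 arrays, and SHP2 sh2 overlapped the controls. In RPS19 both SHP2 groups overlapped them.

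Among paralogs whose use is restricted or regulated, RPL3L, the striated muscle counterpart of RPL3, read 6.77 and 6.94 on Ctrl shRNA, 6.57 and 7.48 on SHP2 sh1, and 7.10, 7.80 and 7.02 on SHP2 sh2. The difference was 0.31 (SE 0.33), and -0.04 without the replicate 2 pair. RPS27L, a p53 target, read 6.06 on both controls, 6.37 and 5.27 on SHP2 sh1, and 6.06, 5.50 and 6.32 on SHP2 sh2, with -0.17 (SE 0.36). RPL10L, the testis counterpart of RPL10, ranged from 6.78 to 7.02 over the 7 arrays, and RPL39L from 5.36 to 5.66. These last were among the members that varied least, with RPS21, at 7.48 to 7.65 and with the same 7.61 on 4 of the 7 arrays, and RPL19, at 9.76 to 10.04. The SD over the 7 arrays ran from 0.06 for RPS21 to 0.88 for RPS13.

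With all 7 arrays the hairpins were close to each other over the members. The median of SHP2 sh2 minus SHP2 sh1 was 0.01, with 28 members below 0 and 33 above (0.11 after cyclic loess), against 0.03 over all genes. This median varied with the replicate 2 arrays. Without SHP2 sh2 replicate 2 it was 0.16, with 13 members below 0 and 48 above, against -0.007 over all genes. Without the replicate 2 pair it was 0.09, with 18 below and 42 above, against 0.04 over all genes. With all arrays, the 4 members with the smallest p-values between the hairpins were RPL23 at 0.41 (SE 0.27), RPS28 at 0.36 (SE 0.34), RPL7A at 0.30 (SE 0.21) and RPL26 at -0.27 (SE 0.26). RPL23, which can also bind MDM2, read 8.36 and 8.30 on Ctrl shRNA, 7.90 and 7.42 on SHP2 sh1, and 8.30, 7.65 and 8.26 on SHP2 sh2. The 2 SHP2 sh1 arrays were on both sides of the lowest SHP2 sh2 array. RPL7A read 9.72 and 9.75 on Ctrl shRNA, 9.41 and 9.27 on SHP2 sh1, and 9.87, 9.38 and 9.69 on SHP2 sh2. RPL26 read 8.52 and 8.65 on Ctrl shRNA, 8.62 and 8.61 on SHP2 sh1, and 8.39, 7.93 and 8.71 on SHP2 sh2. In neither gene were the hairpins clear of each other.

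The probes of a gene did not always give the same sign. Of the 21 members with more than 1 probe, 14 had all probes below 0 for the mean of both hairpins, 2 had all above and 5 had probes on both sides. The median range between probes of a gene was 0.22, and the largest 0.82, in RPS15. Many ribosomal protein genes have processed pseudogenes with nearly the same sequence, and how far a probe also reads these was not tested. With several-symbol probes added for 11 further genes, 19 of 72 lay below both controls on all 5 SHP2 arrays. Without the added probes the shares were 7.17% of all genes and 13.1% of the brightest 25%. The 4 added were RPL6, RPL13A, RPL21 and RPS18. Of the 11 further genes, RPS12 at 0.42 and RPL39 at 0.11 had a difference above 0, and the rest had one below. The added probes were not put through cyclic loess.

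The promoter features were also set beside the array values. Of the 15 members below both controls everywhere, 13 had a promoter, of which 11 had a TOP-like start (84.6%) and 3 an ETS core (23.1%). Of the 46 other members, 37 had a promoter, of which 30 had a TOP-like start (81.1%) and 20 an ETS core (54.1%). These sets were formed from the measured values, so no test was made. By subunit, an ETS core was in 8 of 19 small subunit promoters and in 15 of 31 large subunit promoters.

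The wider translation machinery was read from lists of genes named by function, and no gene of these lists passed the adjusted threshold in limma. The lists overlap and are not separate lines of evidence. EEF2, EIF4B, NPM1, BTF3 and FAU, for example, are on the list of TOP messenger RNAs and also on another. Of 17 other genes with TOP messenger RNAs, 15 had a difference below 0 and 2 had one above it, and the median was -0.33 (-0.05 after cyclic loess). The list's medians on the replicate 2 pair were -0.41 and -0.73, against -0.14, -0.07 and -0.07 on the other SHP2 arrays, and without the pair it was at -0.10. TPT1, the translationally controlled tumour protein, read 8.54 and 8.58 on Ctrl shRNA, 8.17 and 8.17 on SHP2 sh1, and 7.65, 7.18 and 8.17 on SHP2 sh2, a difference of -0.64 (SE 0.28). EEF2, the elongation factor that moves the ribosome along, read 11.77 and 11.88 on Ctrl shRNA, 11.06 and 11.51 on SHP2 sh1, and 11.66, 11.38 and 11.25 on SHP2 sh2, with -0.47 (SE 0.21). Both lay below the controls on all 5 SHP2 arrays. The 7 elongation factors had a median of -0.12, and 0.25 after cyclic loess. EIF5A2, of that list, had a difference of -0.85 (SE 0.55).

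All 26 initiation factors measured had a negative difference, with a median of -0.48 (-0.16 after cyclic loess, with 18 of 26 below 0). Most of this lay on the replicate 2 pair, where the list's medians were -0.74 and -0.95 against -0.09, -0.17 and -0.06 on the other SHP2 arrays, and without the pair the median was -0.14, with 23 of 26 below 0. EIF3G, a subunit of the eIF3 complex, read 9.62 and 9.63 on Ctrl shRNA, 9.14 and 9.15 on SHP2 sh1, and 9.33, 8.83 and 9.33 on SHP2 sh2, with -0.47 (SE 0.20). EIF4A2, a helicase of cap-dependent initiation, had -0.55 (SE 0.29). EIF3G lay below the controls on every SHP2 array, and EIF4A2 did not.

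The genes that build ribosomes had lower medians than the ribosomal proteins themselves, at -0.49 over 41 biogenesis factors (38 below 0) and -0.49 over the 14 genes of RNA polymerase I and its initiation factors (12 below 0). After cyclic loess these were -0.33 and -0.57, and without the replicate 2 pair -0.12 and -0.14. Against the control mean, the biogenesis list stood at 0.10 and -0.10 on the 2 Ctrl shRNA arrays, with 40 of 41 genes above it on replicate 1. Its medians were -0.95 and -1.42 on the replicate 2 pair. On the other SHP2 arrays they were -0.13, -0.20 and 0.05. The polymerase I list gave -0.96 and -1.28 on the pair, and -0.14, -0.21 and -0.13 on the others. RRS1, which helps to place the 5S particle in the large subunit, read 8.73 and 8.25 on Ctrl shRNA, 7.87 and 6.52 on SHP2 sh1, and 7.68, 6.75 and 7.89 on SHP2 sh2, with -1.17 (SE 0.46). FBL, the ribosomal RNA methyltransferase fibrillarin, read 10.20 and 10.13 on Ctrl shRNA, 9.75 and 8.73 on SHP2 sh1, and 9.52, 8.27 and 9.82 on SHP2 sh2, with -0.95 (SE 0.47). Both were below the controls on all 5 SHP2 arrays. POLR1D, a subunit of RNA polymerases I and III, read 9.39 and 9.85 on Ctrl shRNA, 8.96 and 8.99 on SHP2 sh1, and 8.66, 8.30 and 8.99 on SHP2 sh2, with -0.81 (SE 0.25). TAF1D, of the polymerase I initiation factor SL1, had -1.14 (SE 0.56). The difference between these lists and the members was not tested.

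Of the 8 chaperones dedicated to ribosomal proteins and nascent chains, 7 were below 0, with a median of -0.09. TSR2, which escorts RPS26, had -0.63 (SE 0.39), and BTF3 -0.37 (SE 0.32). The 14 genes of growth control had a median of -0.21, and 0.01 after cyclic loess. MYC, a transcription factor that raises ribosome production, read 10.09 and 10.31 on Ctrl shRNA, 9.79 and 9.53 on SHP2 sh1, and 9.77, 9.35 and 9.78 on SHP2 sh2. All 5 SHP2 arrays were below both controls, and the difference was -0.55 (SE 0.21, limma adjusted p = 0.758). EIF4EBP2, a repressor of cap-dependent initiation under mTOR, had -0.59 (SE 0.37).

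FAU, which encodes the small subunit protein RPS30 fused to a ubiquitin-like protein and so falls outside the naming rule, read 8.82 and 8.78 on Ctrl shRNA, 8.85 and 8.98 on SHP2 sh1, and 8.95, 8.86 and 9.36 on SHP2 sh2. Every SHP2 array was above both controls, by 0.03 or more, and the difference was 0.19 (SE 0.20). RPL22L1, the paralog of RPL22, read 6.08 and 6.16 on Ctrl shRNA, 5.51 and 5.34 on SHP2 sh1, and 5.76, 5.81 and 5.81 on SHP2 sh2. Every SHP2 array was below both controls, and the difference was -0.51 (SE 0.16, limma adjusted p = 0.758), and -0.69 after cyclic loess. Of the 6 paralogs outside the rule, 3 were below 0 and 3 above, and RPS4Y2 had 0.24 (SE 0.20).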

How the data were processed

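Total RNA was hybridised to 7 Affymetrix Human Gene 1.0 ST arrays. The authors normalised them with rma of the oligo package, and the deposited values are log2 expression per probe with no detection call, so their number limits the precision. Of 33297 probes, 19460 had 1 gene symbol, 1754 had several and 12083 were unlisted, which left 18417 genes. The labels name RNeasy and the study's methods TRIzol for extraction. Linear models were fitted with limma 3.58.1 in R 4.3.3 with a mean for each group, all 7 arrays in 1 fit, and Benjamini-Hochberg adjustment over all genes; the test was tried on simulated data. The probe with the largest interquartile range stood for a gene, as in the study's methods. Members and gene lists were chosen with earlier results of these data known. Genes were named by a rule: PTPN11, members with a set role, up to 6 members of smallest p in each direction and 4 between hairpins, the 4 members with the largest and the 4 with the smallest SD, and up to 2 genes per list. Alternatives concerned probe choice, dim genes, scaling, the variance model, the replicate block and left-out arrays. Promoters came from RefSeq GRCh38.p14.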

Additional observations from a re-analysis of the deposited data

How the results depend on the processing

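No setting called a member, and the 4 comparisons had 0 genes called under the alternatives tried, except SHP2 sh2 with limma array weights, where 30 genes passed; that fit gave SHP2 sh2 replicate 1 a weight of 2.5e-06, and moved the members' median to -0.063 for SHP2 sh2 (38 below 0, 23 above) and -0.15 for the mean of both hairpins. Cyclic loess moved the members' median to -0.020 for SHP2 sh1, 0.13 for SHP2 sh2 and 0.072 for the mean of both hairpins, and the count of members below both controls to 5; the cause was not tested. With 1 array left out, the medians ranged from -0.32 to -0.14, from -0.36 to -0.03, and from -0.30 to -0.16 in the same order. Between hairpins the range was -0.06 to 0.16. The members below both controls then ranged from 15 to 24 and those above from 0 to 6. Leaving out an array cannot lower either count. Over all genes 7.46% to 15% were below and 8.49% to 23.4% above. The replicate block gave medians of -0.25, -0.36 and -0.29, and -0.06 between hairpins, with 0 genes called; SHP2 sh2 replicate 3 has no partner and drops out. Same-numbered arrays had correlations of -0.06 to 0.02 with the controls and 0.62 and 0.85 between hairpins, so the numbers were not taken as pairs.

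Some single genes changed sign. Without both replicate 2 SHP2 arrays these were RPLP1 (-0.16), RPL3L (-0.039), RPL10L (-0.026), RPS27L (0.22), RPL13 (-0.27), RPL26 (0.0015), RPL17 (0.058) and RPL19 (-0.049). After cyclic loess they were RPLP2 (0.077), RPS6 (0.25), RPS19 (0.28), RPL10L (-0.085), RPL7A (0.076) and RPL26 (0.11). RPL39L was at 0.0017 with the replicate block, RPL29 at -0.15 with its brightest probe and RPL26 at 0.040 with array weights. With 1 array left out the ranges were -0.063 to 0.49 for RPLP1, -0.22 to 0.10 for RPS19, -0.024 to 0.10 for RPL10L, -0.11 to 0.048 for RPL39L, -0.44 to 0.11 for RPS27L, -0.20 to 0.45 for RPL13 and -0.055 to 0.087 for RPL19. The other genes given with a difference kept its direction under the alternatives run for them. No detection call came with the values, so dim members such as RPL39L have no stated background.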
